A study of Mus musculus with 12 samples.

Results

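MOF (KAT8) places acetyl groups on lysines of histone H4. Its position on the chromatin of visceral white adipose tissue was described here at 9 genes of the adipokine system. These are 6 ligands (Adipoq, Lep, Retn, Cfd, Rbp4 and Nampt) and 3 receptors (Adipor1, Adipor2 and Lepr). The genes were picked by name, from 21938 protein-coding genes on chromosomes 1 to 19, X and Y. Each was located by the GENCODE mouse M21 annotation on GRCm38. A peak was given to a gene when it touched the gene body or lay within 3 kb of any annotated start site.

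Adipokines are proteins that fat releases into the blood and that tell other tissues how much energy is stored. Leptin, made in proportion to fat mass, curbs food intake through its receptor in the hypothalamus. Adiponectin comes almost only from adipocytes and raises insulin sensitivity through AdipoR1 and AdipoR2. Adipsin (Cfd), resistin, retinol binding protein 4 and NAMPT are further products of adipose tissue with roles in complement activation, insulin sensitivity, vitamin A transport and NAD synthesis.

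The series held 12 libraries in 6 groups of 2, from mice fed a standard diet and aged 8 weeks. The labels give the strain as C57BL/6, and the methods name C57BL/6J as the strain of the backcrosses. MOF chromatin immunoprecipitation (ChIP), histone H3 ChIP and input DNA were each sequenced in wild type mice (Mof+/+, both copies of the gene) and in mice heterozygous for Mof in the whole body (Mof+/-, 1 copy). Peaks came as 1 list for each genotype, 19773 peaks for Mof+/+ and 731 for Mof+/-. The lists do not show the libraries apart, so replicates were not compared here and no difference between the genotypes was tested. Of each peak the list gives the fold enrichment, which is the ratio of MOF ChIP fragments over the summit to the local background, and the p-value of that ratio. The number of fragments was recovered from both, and the intervals given with a fold enrichment are 95% Poisson intervals of that number. They cover counting error only. The tissue was bulk, so a smaller share of cells with MOF at a gene and less MOF per cell cannot be told apart.

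In Mof+/+ tissue, 5 of the 9 genes had a MOF peak. Over all protein-coding genes the share was 44.5%. Ligands with a peak were Adipoq (3 peaks), Cfd (2 peaks) and Nampt (1 peak). Receptors with a peak were Adipor1 (1 peak) and Adipor2 (5 peaks). Lep, Retn, Rbp4 and Lepr had none. In Mof+/- tissue, 0 of the 9 genes had a peak, where 1.89% of protein-coding genes had one. All 5 genes also had a peak within 3 kb of a start site, which 42.8% of protein-coding genes had.

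**Figure D1:**
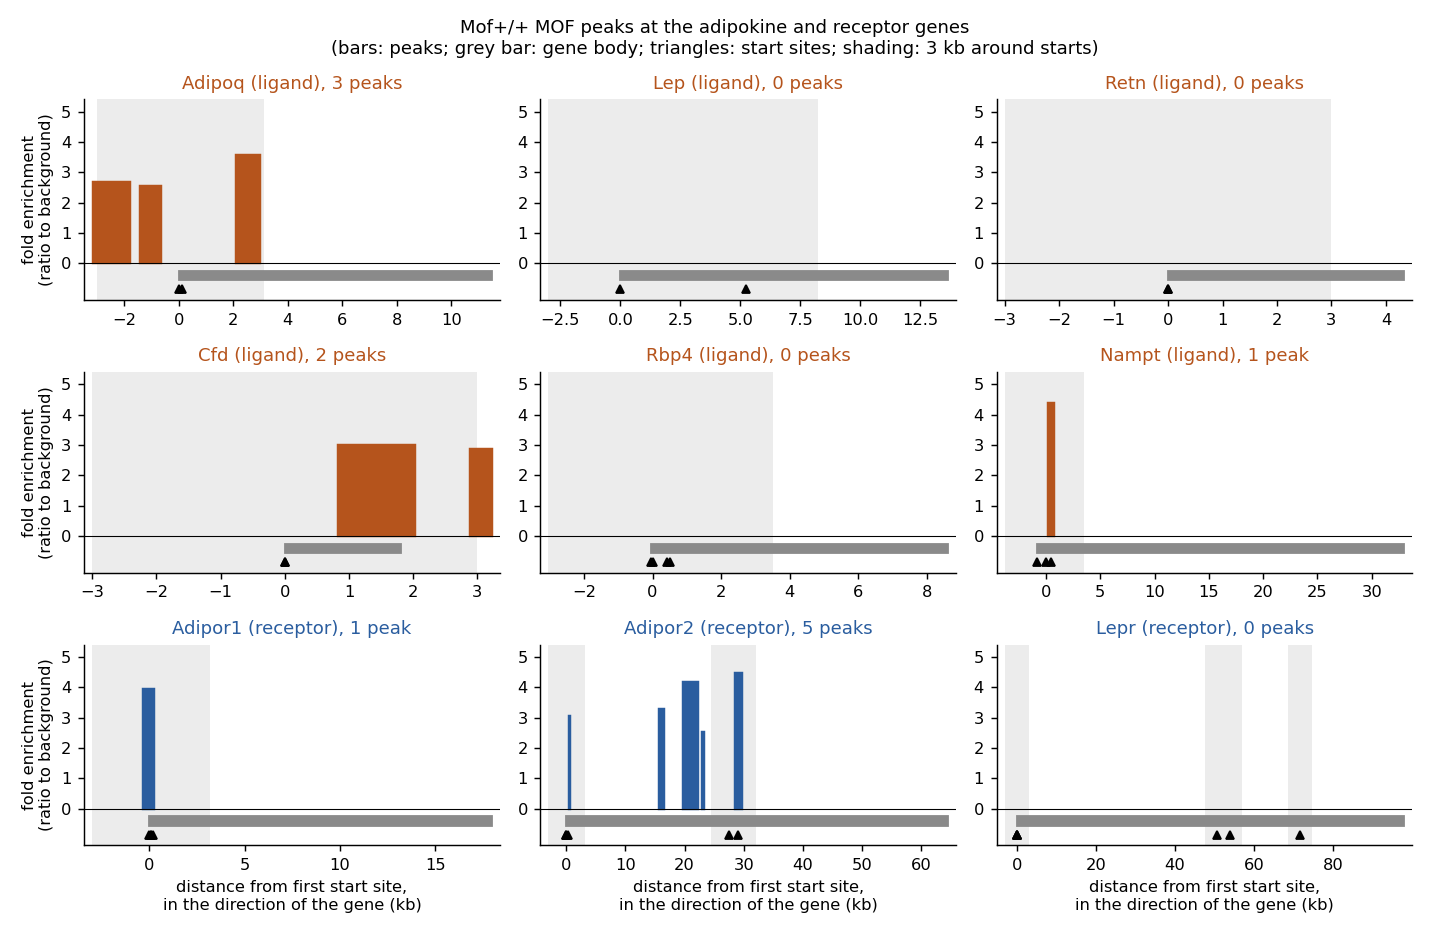
Position (horizontal axis, kb from the first start site in the direction of the gene) and fold enrichment (vertical axis) of every Mof+/+ peak at the 9 genes. Nampt and Adipor1 had their single peak at the start region, Adipor2 had 5 peaks along its body, and the panels of Lep, Retn, Rbp4 and Lepr hold no peak.

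The sequences before the start sites are shown for their differing CG content. Those given here are the 250 bases that precede a RefSeq start (GRCm38.p6), read 5′ to 3′ on the strand of the gene, with every CG dinucleotide in capitals. The first pair lay wholly under a Mof+/+ peak. The Nampt window lay just before one. The Adipoq and Lep windows lay under none, and the Lep window ends 1 base into the first exon of the M21 annotation.
Adipor1, chr1:134415128-134415377, + strand: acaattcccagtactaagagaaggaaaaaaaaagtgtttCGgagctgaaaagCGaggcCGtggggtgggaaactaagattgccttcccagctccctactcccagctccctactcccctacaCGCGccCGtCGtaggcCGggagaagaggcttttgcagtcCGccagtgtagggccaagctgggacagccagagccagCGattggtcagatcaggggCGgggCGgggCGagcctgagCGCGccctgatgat
Adipor2, internal start, chr6:119388735-119388984, − strand: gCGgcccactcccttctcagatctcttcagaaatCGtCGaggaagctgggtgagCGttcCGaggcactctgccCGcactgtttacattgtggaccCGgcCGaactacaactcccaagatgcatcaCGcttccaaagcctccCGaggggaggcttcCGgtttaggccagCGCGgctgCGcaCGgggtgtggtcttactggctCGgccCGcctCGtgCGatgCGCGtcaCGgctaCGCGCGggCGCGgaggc
Nampt, chr12:32820085-32820334, + strand: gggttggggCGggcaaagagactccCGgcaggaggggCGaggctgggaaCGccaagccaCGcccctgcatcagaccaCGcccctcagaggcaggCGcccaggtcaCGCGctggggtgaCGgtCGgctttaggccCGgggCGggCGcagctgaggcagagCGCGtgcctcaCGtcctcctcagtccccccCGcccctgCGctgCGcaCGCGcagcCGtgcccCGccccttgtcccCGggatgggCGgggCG
Adipoq, chr16:23146286-23146535, + strand: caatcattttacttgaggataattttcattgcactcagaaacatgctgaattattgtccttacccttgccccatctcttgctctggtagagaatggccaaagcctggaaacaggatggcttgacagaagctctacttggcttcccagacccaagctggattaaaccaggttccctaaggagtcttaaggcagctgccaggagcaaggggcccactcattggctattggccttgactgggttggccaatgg
Lep, chr6:29059971-29060220, + strand: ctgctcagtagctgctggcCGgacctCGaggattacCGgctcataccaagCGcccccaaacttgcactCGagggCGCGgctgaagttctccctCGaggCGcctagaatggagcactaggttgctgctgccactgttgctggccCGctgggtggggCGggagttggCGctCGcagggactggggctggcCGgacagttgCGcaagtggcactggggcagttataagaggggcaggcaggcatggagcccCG

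The Adipor1 window held 15 CG dinucleotides, that of the internal Adipor2 start 27, that of Nampt 27, that of Lep 16 and that of Adipoq 0. The median over 32851 RefSeq promoters of the same length was 6. The GC box core GGGCGG, searched on both strands, occurred 5 times in the Nampt window, 2 times in that of Adipor1, once in that of Lep and not in those of Adipoq and Adipor2. It was present in 32.7% of all promoters. CCAAT, searched likewise, occurred 3 times before Adipoq and once before Adipor1, and was present in 33.8% of all promoters. TATAAA was found in none of the 5 windows and in 12.4% of all promoters. A Rbp4 window, not printed because it overlaps an exon, went the other way from Adipor1 and Adipor2. It held 28 CG dinucleotides, more than any printed window, 2 copies of GGGCGG and 1 of TATAAA, and no base of it lay under a peak. The window of the other Rbp4 start held 5 CG dinucleotides. A match of letters is a description of the sequence and no evidence of a bound factor.

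Adipoq encodes adiponectin and lies on chromosome 16 at 23146536 to 23158028, + strand. None of its 3 Mof+/+ peaks covered the start site, where the list thus holds no value. The nearest edge of a peak was 659 bp from that site. The strongest, at chr16:23148604-23149533, had its summit in an intron 2135 bp downstream of the nearest start. It had a fold enrichment of 3.62 (interval 2.16 to 5.74) from 16 fragments over a background of 3.70, and a −log10 p of 6.40. The other two lay upstream of the gene. That at chr16:23145088-23145877 had its summit 852 bp before the start and a fold enrichment of 2.59 (1.55 to 4.11). That at chr16:23143358-23144752 had its summit 2527 bp before it and a fold enrichment of 2.73 (1.60 to 4.38). Both upstream peaks were weak for the list, in which 92.1% and 86.6% of peaks reached at least their fold enrichment. For the intronic peak that share was 40.7%.

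The intronic peak of Adipoq lay in CG-poor DNA, with 9.68 CG dinucleotides per kb against a median of 24.5 over all Mof+/+ peaks. To show such a summit, the 50 bases to either side of it are printed (+ strand) with the intronic summit of Adipor2 described further on (− strand, the strand of that gene). Capitals mark sites of CviKI-1, the enzyme that cut the chromatin (AGCC and AGCT, and likewise the sites GGCC and GGCT).
Adipoq, intronic summit, chr16:23148731-23148831: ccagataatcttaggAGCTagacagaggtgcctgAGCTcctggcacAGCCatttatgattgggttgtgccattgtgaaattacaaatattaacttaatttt
Adipor2, intronic summit, chr6:119395532-119395632: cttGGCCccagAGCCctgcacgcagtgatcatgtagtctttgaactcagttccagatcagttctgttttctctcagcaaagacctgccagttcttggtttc

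The Adipoq window held 3 such cut sites and no CG dinucleotide, and the Adipor2 window 2 cut sites and 1 CG dinucleotide. The surroundings of Adipoq were rich in peaks. Within 100 kb of the gene lay 16 Mof+/+ peaks, where the median protein-coding gene had 3 and the middle range ran from 0 to 7. The strongest of them, with a fold enrichment of 6.42 each, lay 36640 bp before Adipoq, nearest to a start of the translation factor gene Eif4a2, and 66436 bp beyond it, nearest to a start of BC106179. These neighbours were chosen after their values were seen.

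Cfd encodes adipsin, also called complement factor D, the serine protease that activates the alternative complement pathway. It is a short gene of 1803 bp on chromosome 10 (79890853 to 79892655, + strand). A peak at chr10:79891662-79892876 covered its second part, with the summit in coding sequence 1699 bp downstream of the start and a fold enrichment of 3.05 (1.89 to 4.67) from 19 fragments. A weaker one at chr10:79893726-79894078 lay past the end of the gene, with a fold enrichment of 2.90 (1.67 to 4.73) from 14 fragments. Neither reached the start, which lay 809 bp from the nearest edge. Cfd had the densest surroundings of the 9 genes, with 23 Mof+/+ peaks within 100 kb. The peak past its end was counted because it lay within 3 kb of the start, and another peak 2377 bp past the end of the gene fell outside that distance.

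Nampt encodes the rate-limiting enzyme that makes NAD from nicotinamide, and the same protein is found in blood as visfatin. Its only Mof+/+ peak, at chr12:32820424-32821101, began 89 bp downstream of the coding start and covered the start of a noncoding transcript of the gene. The summit lay in an intron, 339 bp downstream of the coding start. With a fold enrichment of 4.42 (2.75 to 6.78) from 19 fragments and a −log10 p of 8.90, this was the strongest peak of the ligands, and 19.9% of the list reached that fold enrichment. The DNA under it was 71.5% GC and held 108 CG dinucleotides per kb. Within 100 kb of Nampt lay 1 further peak.

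Leptin, resistin and retinol binding protein 4 are the ligands without a peak. Retn had the nearest one, 4520 bp past the gene with a fold enrichment of 2.88, closest to a start of Mcemp1. For Rbp4 the nearest was 88476 bp away (fold enrichment 2.88, by Myof), and for Lep 90551 bp (3.10, by Rbm28). Within 100 kb of Lep lay 1 peak, of Rbp4 4 and of Retn 6. Lep and Rbp4 were thus far from any called peak. The one nearest to Retn lay 8860 bp from the Retn start, well outside the 3 kb window. A gene with no peak has no value in the list. At the lowest background of the Mof+/+ list, 3.52 fragments, a call needed 11 fragments, a fold enrichment of 2.65. Where the background was higher, peaks with a lower fold enrichment were called, down to 2.56 at the members, so no single limit applies to the genes without a peak.

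Adipor1 encodes the adiponectin receptor that is most abundant in skeletal muscle. It lies on chromosome 1 (134415378 to 134433351, + strand). Its single Mof+/+ peak, at chr1:134414996-134415616, covered all 4 annotated start sites and had its summit 228 bp upstream of the first. The fold enrichment was 3.98 (2.41 to 6.24) from 17 fragments, with a −log10 p of 7.41, and 30.7% of the list reached it. The sequence under the peak was 64.9% GC with 88.6 CG dinucleotides per kb, and it includes the whole Adipor1 window printed above.

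Adipor2 encodes the second adiponectin receptor, which is most abundant in liver. It lies on chromosome 6 (119353150 to 119417704, − strand) and had 5 Mof+/+ peaks, a number that 2.89% of protein-coding genes of any length reached. Adipor2 spans 64555 bp, and 2 of its peaks lay within 3 kb of a start and 2 passed a q of 0.001. The strongest did not lie at the first start site but at an internal coding start. That peak, at chr6:119388053-119389397, had its summit 93 bp downstream of that start, which put it 29111 bp downstream of the first start. Its fold enrichment was 4.52 (2.88 to 6.80) from 21 fragments, with a −log10 p of 9.73, the highest of any member. At the first start region, the peak at chr6:119416989-119417466 had a fold enrichment of 3.09 (1.82 to 4.97) from 15 fragments and ended 9 bp short of the nearest start. The intervals of both overlap, and their difference was not tested.

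The other three Adipor2 peaks were intronic and lay between these starts. The peak at chr6:119395425-119398061 was 2637 bp wide, the widest of the members, with a fold enrichment of 4.20 (2.58 to 6.51) from 18 fragments. Those at chr6:119401262-119402237 and chr6:119394351-119394871 had fold enrichments of 3.32 (1.91 to 5.42) and 2.56 (1.42 to 4.33). The latter, from 12 fragments, was the weakest peak of any member. No CG dinucleotide lay under it.

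Lepr encodes the leptin receptor, which is known for its role in hypothalamic neurons. It is the longest of the 9 genes, with 97949 bp on chromosome 4 (101717404 to 101815352, + strand), and had no Mof+/+ peak over its body or any of its starts. The nearest peak, 69278 bp upstream at chr4:101647246-101648126, covered the start region of Leprot, whose product acts on the surface level of the leptin receptor. It had a fold enrichment of 5.53 (3.62 to 8.12), above that of every member peak.

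Ligands and receptors were then set side by side. A peak was present at 3 of 6 ligands and 2 of 3 receptors, and each set held 6 peaks. The strongest peak of a gene had a median fold enrichment of 3.62 over the 3 ligands with a peak (range 3.05 to 4.42) and of 4.25 over the 2 receptors (3.98 and 4.52). Over all protein-coding genes with a peak the median was 3.98. The receptor median was 0.63 higher, but the ranges overlap and all 12 intervals of the member peaks share the stretch from 2.88 to 4.11. Strongest and weakest thus refer to the listed values only, and their order was not tested against counting error. With 3 against 2 genes, each kept because it had a peak, the difference was not tested. Over the 12 peaks the fold enrichment ranged from 2.56 to 4.52 with a median of 3.21, against 3.40 in the whole list. Their median width was 860 bp, against 609 bp, and they rested on 12 to 21 fragments (median 16, the same as in the list).

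**Figure D2:**
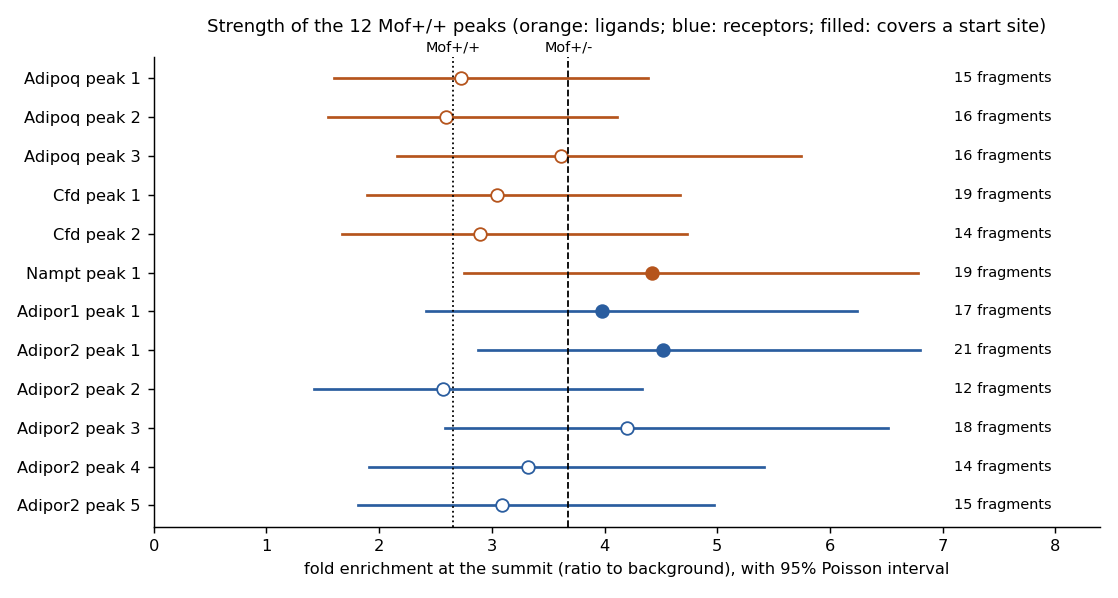
Fold enrichment at the summit (horizontal axis, ratio to background) of the 12 Mof+/+ peaks, with 95% Poisson intervals as lines and the recovered fragments at the right; Adipor2 peaks are numbered by position on the chromosome, so peak 1 is at the internal start and peak 5 at the first. Dotted and dashed lines mark the fold enrichment a call needed at the lowest background of the Mof+/+ list (2.65) and of the Mof+/- list (3.68); at higher backgrounds weaker peaks were called. All intervals overlap.

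What set the member peaks apart among themselves was their place and base composition. Only 3 of the 12 covered a start site, those of Nampt, Adipor1 and the internal Adipor2 start. These had 88.6 to 108 CG dinucleotides per kb and a GC content of 62.2% to 71.5%. In the other 9 peaks both were lower, at 0 to 32.1 CG per kb and 37.4% to 54.7% GC. The fold enrichment was 3.98 to 4.52 over starts and 2.56 to 4.20 elsewhere, so by the listed values only the wide intronic Adipor2 peak reached into the range of the start peaks. Cut sites of CviKI-1 moved with the same split. There were 28.3 to 38.3 per kb under the start peaks and 12.3 to 24.1 per kb under the others, with a median of 21.2 over the list. The part of cut site density in these fold enrichments was not tested.

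Genes with a start in a CpG island, a stretch rich in CG that marks many broadly used promoters, had Mof+/+ peaks more often than other genes. Of protein-coding genes whose reference start met a GC content of 50% and an observed to expected CG ratio of 0.6 in the 500 bp to either side, 71.1% had a peak, against 22.9% of the rest. Among the 9 genes, Rbp4, Nampt and Adipor1 had such a start, and 2 of these 3 had a peak. Of the 6 others, 3 had one (Adipoq, Cfd and Adipor2). Rbp4 is thus an island gene without a peak. Its coding starts had 51 to 85 CG dinucleotides in that stretch, where the median of protein-coding genes was 42. Adipor2 counted as a non-island gene by its first start, with 21, but its internal start had 125, the most of any start of the 9 genes. Adipoq had 8 at its first start, Cfd 11, Retn 13, Lep 30 and Lepr 41.

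**Figure D3:**
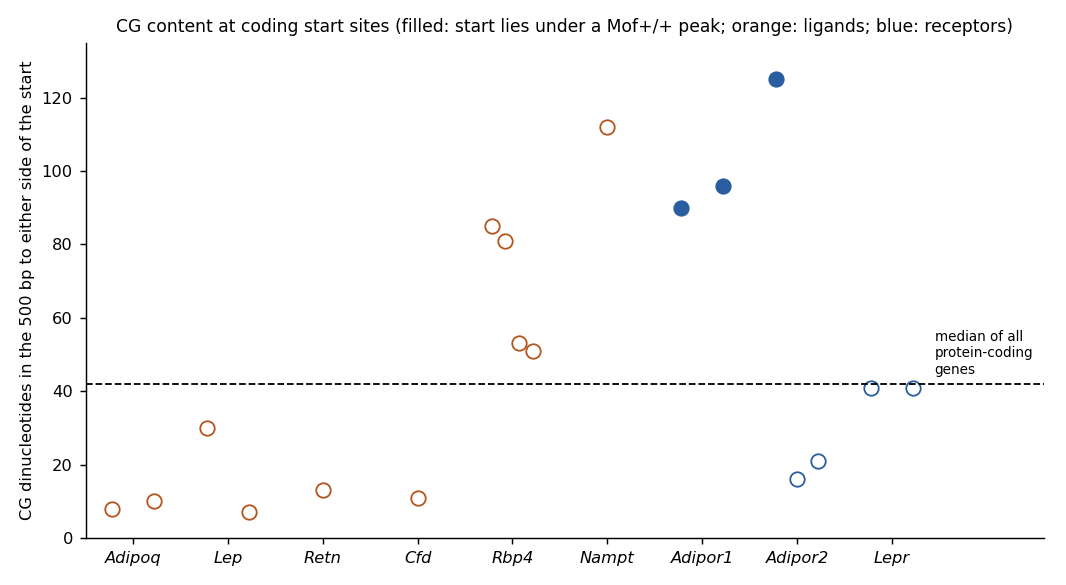
CG dinucleotides in the 500 bp to either side of each coding start site (vertical axis, count) of the 9 genes. Filled points, starts under a Mof+/+ peak, are those of Adipor1 (90 and 96) and the internal start of Adipor2 (125); the Nampt point (112) is open since its peak began 89 bp downstream, and the Rbp4 points lie above the dashed median of 42 without a peak.

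The same rule was applied to 52 further genes of the adipokine system, in 4 lists. Of these, 28 had a Mof+/+ peak and 0 had a Mof+/- peak, against 44.5% and 1.89% of protein-coding genes. Of 18 other adipokines, 6 had a Mof+/+ peak. Only 3 of the 18 have an island start. Among those without one 4 had a peak, where the share over all such protein-coding genes was 22.9%. The highest fold enrichments were 4.41 at Angptl4, an inhibitor of lipoprotein lipase, 4.14 at Tnf, the inflammatory cytokine, which had 4 peaks, and 3.35 at Metrnl, a secreted factor of fat and muscle. Of 16 receptors of other adipokines or cytokines, 8 had one. They were led by Cap1 (6.14), a resistin-binding protein with 4 peaks, Il6ra (5.31), the interleukin 6 receptor with 8 peaks, and Insr (5.09), the insulin receptor. The Il6ra summit was nearest to the start of another gene, Gm42809, at 6 bp, and lay 240 bp downstream of the nearest Il6ra start. The Insr summit lay within the gene body, 28721 bp upstream of an internal start, the nearest annotated one.

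In the list of leptin signalling, which holds transducers, inhibitors and genes that act on the receptor's surface level, all 9 genes had a Mof+/+ peak. All 9 have an island start, and of protein-coding genes with such a start 71.1% had a peak in the body or within 3 kb of a start. Irs2, an adaptor shared with insulin signalling, reached 6.38 (4.42 to 8.92), and Jak2, the kinase that the leptin receptor activates, 6.19 (4.16 to 8.91). Stat3, the transcription factor of the pathway, and Leprot both stood at 5.53. Of 10 genes of adiponectin signalling and secretion, 5 had a peak. In this list 8 genes have an island start, and 4 of these 8 had a peak, below that share. Stk11, the kinase LKB1 upstream of AMPK, had a fold enrichment of 4.42. Prkaa1, a catalytic subunit of AMPK, had 3.91, and Appl1, the adaptor that binds both adiponectin receptors, 3.58.

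**Figure D4:**
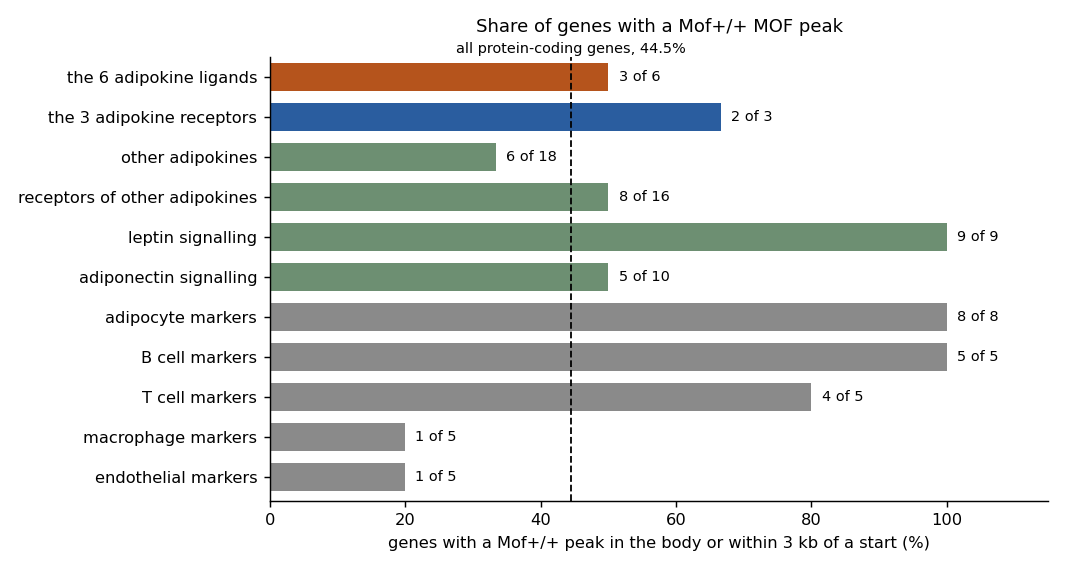
Share of genes with a Mof+/+ peak (horizontal axis, %) in the member lists, the other adipokine lists and 5 cell type marker lists, with counts at the bars. The dashed line is the 44.5% of all protein-coding genes. The ligands (3 of 6) and receptors (2 of 3) lie above it and other adipokines (6 of 18) below. Only 3 of these 18 have an island start, and the share over protein-coding genes without one was 22.9%. All leptin signalling genes (9 of 9) had a peak, and all have island starts, for which the share was 71.1%.

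The tissue label was checked against markers. A Mof+/+ peak was present at 8 of 8 adipocyte genes 5 of 5 B cell genes, 4 of 5 T cell genes, 1 of 5 macrophage genes and 1 of 5 endothelial genes. The share was 44.5% over all protein-coding genes and 22.9% over those without an island start, the kind that most of these markers have. Over the genes with a peak, the strongest peak had a median fold enrichment of 3.43 at adipocyte, 5.53 at B cell and 4.34 at T cell genes. It was 5.75 at the macrophage gene and 5.53 at the endothelial gene, against 3.98 over the members. Peaks were thus present at marker genes of lymphocytes as well as of adipocytes, and which cells gave the peaks at the adipokine genes was not tested. In Mof+/- tissue 1 marker gene had a peak, the B cell gene Pax5. Kat8, the gene that encodes MOF, had 3 Mof+/+ peaks, the strongest with a fold enrichment of 4.65, and no Mof+/- peak. A peak reads the protein on chromatin and does not check the number of gene copies.

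Between genotypes, none of the 12 Mof+/+ member peaks was overlapped by a Mof+/- peak, and none had one within 1000 bp. Over all Mof+/+ peaks 2.50% were overlapped. The Mof+/- peak nearest to any member lay 139765 bp from Retn, nearest to a start of Pnpla6. For the other 8 genes it lay between 448647 bp (Nampt) and 3838861 bp (Adipor1) away. A member count of 0 is therefore near what the short Mof+/- list gave for genes at large.

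The lists also differed in background and in the weakest peak called. The lowest background was 3.52 fragments for Mof+/+ and 2.26 for Mof+/-, a ratio of 1.56. In −log10 p, the weakest called Mof+/+ peak reached 3.25 and the weakest Mof+/- peak 4.72. A call needed 11 fragments at the lowest background of either list, a fold enrichment of 2.65 in Mof+/+ and of 3.68 in Mof+/-. To set the member peaks on the Mof+/- scale, each was given its own fold enrichment over a background lowered by that ratio. Of the 12 peaks, 5 would then have passed the weakest Mof+/- p-value: the intronic Adipoq peak, Nampt, Adipor1, and the Adipor2 peaks at the internal start and of 2637 bp. Over all Mof+/+ peaks 44.1% would have passed. The count rests on the assumed scale: it was 8 with the background left as in the Mof+/+ list and 0 with the excess over background halved. On the scaled background the remaining 7 would have been missed at unchanged enrichment, both Cfd peaks and both upstream Adipoq peaks among them, so their absence from the Mof+/- list cannot show a difference. For the 5, an unchanged enrichment at its mean count would have been called and the Mof+/- list held no peak. These 5 come from peaks kept because they were called in Mof+/+, which favours high values there, so this comparison cannot show a loss. The expected −log10 p was 5.11 for the intronic Adipoq peak and 5.33 for Adipor1, close to the weakest Mof+/- value of 4.72. The lower bounds of these 5 run from 2.16 to 2.88, their number changes with the assumed scale, and the different scale of the lists and the genotype cannot be told apart from these lists.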

How the data were processed

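MOF binding was measured by ChIP-seq in visceral white adipose tissue. The study's methods state mapping to GRCm38 and peak calling with MACS2 (version 2.1.1.20160309.3) against input DNA at a q-value of 0.1. The authors deposited, as their caller gave them, fold enrichment (a ratio to the local background), the −log10 p-value, the −log10 q-value and the summit position. The score column was not used. The Mof+/- list is named for its genotype, and the list whose name holds no genotype was taken as Mof+/+. Whether libraries were pooled is not stated. The design text speaks of 2 control and 3 Mof+/- animals, the labels of 2 libraries for each genotype, and the reporting summary likewise of 2 littermates. The MOF antibody in the labels differs from those in that summary. A merging of peaks within 1000 bp, mentioned in the methods, had not been applied to the lists. Signal tracks and single H3 and input libraries were not analysed here.

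The 9 members and all gene lists were chosen with earlier results of these data known. Named were all members, the 3 genes of each further list with the highest fold enrichment (ties included), any further gene with a Mof+/- peak and any gene with a start under a member peak. Outside that rule, Kat8 is named as the targeted gene, and the B cell marker with a Mof+/- peak and the genes nearest to peaks around the members were chosen after their values were seen. Genes came from GENCODE M21, and a peak and a gene had to share at least 1 bp. Promoter sequences came from RefSeq (GRCm38.p6); the 32851 sequences were compared with the genome and 0 differed. Fragments and background at a summit were solved from fold enrichment, with 1 added to both, and the Poisson p-value. A whole number of fragments was found within 0.001 in −log10 p for 99.98% of Mof+/+ and 99.45% of Mof+/- peaks. Bounds are exact Poisson. Assignment of peaks and the solution were tested on simulated data. The lists hold no values for single libraries, so no test between groups was run. Python 3.11.15, NumPy 2.4.6, SciPy 1.17.1 and pandas 2.3.3 were used.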

Additional observations from a re-analysis of the deposited data

How the results depend on the processing

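Of 57 values recomputed under other settings, 54 kept their direction and, for counts, stayed within 1.5 times of those reported, 3 moved further and 0 reversed. The count of members with a Mof+/+ peak was 5 under every rule for assigning peaks (1 kb, starts only, body only, coding starts, summit, merged peaks) except 10 kb around the gene, where Retn made it 6. It was 5 at a q of 0.01 and 4 at a q of 0.001, where Cfd dropped out. The 12 member peaks became 8 to 18 under these settings, and 5 at a q of 0.001. The number of member peaks expected past the weakest Mof+/- p-value, 5 at a scaled background, was 8 with the background left as in the Mof+/+ list and 0 with the excess over background halved. The difference between receptor and ligand medians was 0.78 with the mean fold enrichment of a gene and 2.17 in −log10 p, which is another unit. No member had a Mof+/- peak under any setting run. The stricter q removes peaks, while the moved expected counts come from another assumed Mof+/- scale for the same 12 peaks. No paired analysis was possible because the lists used here, 1 for Mof+/+ and 1 for Mof+/-, carry no values for single libraries; for the same reason no replicate was left out, although the labels number 2 libraries in each group. Each value rests on 12 to 21 fragments, and the order of the member peaks by fold enrichment was not tested against counting error.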
